A study of Mus musculus with 9 samples.

Results

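The genes described here encode von Willebrand factor (Vwf) and 5 platelet glycoproteins (Gp1ba, Gp1bb, Gp5, Gp6 and Gp9). They were chosen by symbol from the annotation of the array, and a symbol with several clusters was taken at the one with the highest mean over all arrays. Of the 6 genes, 4 (Gp5, Gp6, Gp9 and Vwf) had a transcript cluster of their own among the 18797 distinct symbols measured. A transcript cluster is the set of probes that the array sums for one gene or locus. Gp1bb was present only in a cluster shared with its neighbour Septin5. No cluster carried the symbol of Gp1ba, so its expression was not analysed here.

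Von Willebrand factor is a large multimeric protein that binds exposed collagen and tethers platelets to an injured vessel wall. Its receptor on platelets is the GPIb-IX-V complex, in which GPIb alpha binds the ligand, GPIb beta (Gp1bb) and GPIX (Gp9) hold the complex together and bring it to the surface, and GPV (Gp5) associates with it. GPVI (Gp6) is a separate receptor that binds collagen and signals through the Fc receptor gamma chain. In mouse marrow the glycoproteins are made late in megakaryocytes, the cells that shed platelets, while Vwf is made by megakaryocytes, by endothelial cells and by some stem cells, and the promoters of these genes are known to be bound by GATA and ETS factors.

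Gene expression was measured on 9 arrays of mouse bone marrow cells, 3 from each of 3 groups. The cells carried a retrovirus with GATA2 R396Q, a substitution variant of the blood transcription factor GATA2, a retrovirus with GATA2 wild type, or the empty vector MIE, which expresses only enhanced green fluorescent protein. All groups shared the donors' background: C57BL/6 females of 8 weeks, given 5-fluorouracil at 150 mg/kg 6 days before harvest, whose lineage-negative, Sca-positive and Kit-positive cells were infected on consecutive days, kept in culture for 72 h and sorted as green fluorescent cells. The labels name the tissue as blood and the cells as hematopoietic stem cells, and they state neither the species of the GATA2 cDNA nor whether replicates came from separate mice, so p-values measure only the spread between these samples.

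All signals are log2 values from robust multiarray average (RMA), and the array medians lay between 6.06 and 6.19. Gata2 itself was at 10.65, 10.72 and 10.53 on the R396Q arrays, at 11.50, 11.24 and 10.94 with wild type, and at 9.87, 9.67 and 9.65 with empty vector. It rose with wild type (2.81-fold, limma adjusted p = 0.0016) and with R396Q (1.87-fold, limma adjusted p = 0.0394). Leaving out any 1 array other than wild type 1 or wild type 3 ended the R396Q call, with a limma adjusted p of up to 0.155. The R396Q signal was 1.51-fold below wild type (limma adjusted p = 0.0633, and 0.0222 with the replicate number as a block). Dose of GATA2 and form of GATA2 therefore cannot be told apart in the comparison of R396Q with wild type. Whether these probes read the retroviral cDNA was not tested.

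The 250 bases before the annotated start sites of Gp5, Gp9 and Gp6 are shown because the first 2 genes rose with GATA2 wild type and the third did not pass the test. Vwf, which also rose, had no entry among the promoter sequences used. The sequences are those of RefSeq on build GRCm38.p6, read 5′ to 3′ on the strand of each gene. Gp5 is at chr16:30310782-30311031 (minus strand), Gp9 at chr6:87777820-87778069 (plus strand) and Gp6 at chr7:4397745-4397994 (minus strand). Capitals mark the GATA factor words AGATAA or AGATAG as well as TGATAA or TGATAG, and the word GATAAG, which was searched after the result for the first 4 was seen; both strands were searched. The word GATAAG overlaps the forms ending in GATAA wherever these are followed by G.
Gp5: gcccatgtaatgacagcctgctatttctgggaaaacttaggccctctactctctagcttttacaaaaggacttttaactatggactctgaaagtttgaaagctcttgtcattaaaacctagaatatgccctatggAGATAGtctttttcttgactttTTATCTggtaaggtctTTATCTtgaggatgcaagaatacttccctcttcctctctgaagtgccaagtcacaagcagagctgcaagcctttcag
Gp9: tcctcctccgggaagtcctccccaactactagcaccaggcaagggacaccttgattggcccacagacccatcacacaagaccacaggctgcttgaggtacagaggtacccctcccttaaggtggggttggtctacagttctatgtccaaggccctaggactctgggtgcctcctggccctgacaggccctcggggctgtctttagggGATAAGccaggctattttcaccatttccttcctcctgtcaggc
Gp6: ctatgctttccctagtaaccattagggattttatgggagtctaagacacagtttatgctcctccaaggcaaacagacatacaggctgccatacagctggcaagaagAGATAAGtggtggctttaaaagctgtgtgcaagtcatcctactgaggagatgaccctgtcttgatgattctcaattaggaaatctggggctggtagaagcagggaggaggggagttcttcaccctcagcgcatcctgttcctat

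The Gp5 window holds 3 matches to the first 4 GATA words, beginning 115, 93 and 77 bases before the start site. The Gp6 window holds 1, beginning 144 bases before the start. The Gp9 window holds 0 matches to these 4 forms but has GATAAG, beginning 43 bases before the start, with a G in front of it. GATAAG also stands in the Gp6 window, beginning 143 bases before the start within its AGATAAG. The Gp1ba window has it too, beginning 103 bases before the start, so the word does not set Gp9 apart from Gp6. At least 1 of the 4 forms stands in 26.5% of the 32851 promoter windows of the same length in the table, 2 or more stand in 6.40%, and GATAAG stands in 6.55%. The ETS words AGGAAG or CGGAAG, on either strand, occur in 39.2% of all windows. One such word begins 48 bases before the Gp5 start and one 16 bases before the Gp9 start, and the Gp6 window holds 0. The Gp1bb window has 1 GATA word and 1 ETS word, and that of Gp1ba has 3 and 1. These matches describe letters and not binding, and no comparison below tests them.

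**Figure D1:**
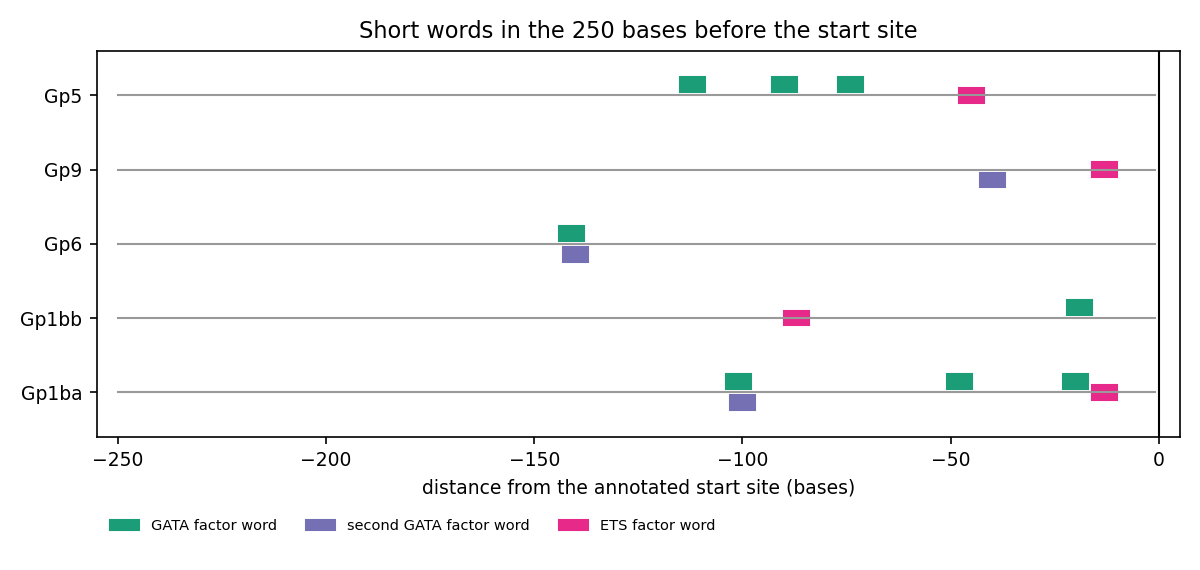
Positions of short words in the 250 bases before the annotated start site of 5 platelet glycoprotein genes. The horizontal axis is the distance from the start site in bases. Green boxes are matches to the first 4 GATA factor words, violet boxes to the word searched later and pink boxes the ETS factor words. Gp5 has 3 green boxes, and Gp9 has a violet and a pink box. Gp6 has a green and a violet box and no pink box, and Gp1ba also has a violet box.

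GATA2 wild type was set against the empty vector to learn how these genes respond to added GATA2. Vwf, Gp5 and Gp9 rose, by 12.02-fold, 16.1-fold and 5.11-fold, while Gp6 did not pass the test. The count of 3 risen genes among 4 measured stands beside 4.64% of all 21072 clusters that rose in the same test, 4.35% that fell and 8.99% in either direction (limma over all 9 arrays, Benjamini-Hochberg adjusted p under 0.05). The median change of the 4 genes was 2.97 on the log2 scale, against -0.01 over all clusters. Each array measured a bulk of sorted cells, in which more cells of a type and more RNA per cell cannot be told apart. Arrays of the groups did not overlap for 3 of the 4 genes, each higher in wild type, beside 10.8% of all clusters that did so upward, 11.8% downward and 22.6% in either direction.

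Vwf, the ligand, was at 9.74, 9.54 and 9.91 (log2 signal, wild type 1 to 3), compared with 6.07, 5.94 and 6.41 (empty vector 1 to 3). The lowest wild type array lay 3.12 above the highest empty vector array, so the groups were far from overlapping. The change was 3.59 (log2, SE 0.17, 95% confidence interval 3.19 to 3.98), with a limma adjusted p = 0.000151. The SD of Vwf was 0.19 in wild type and 0.24 in empty vector (n = 3 each). By size of rise it ranked 47 of 21072 clusters. The empty vector values of Vwf lay around the array medians of 6.06 to 6.19, and the fold is taken from that level.

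Gp5, the accessory subunit that thrombin cleaves from the platelet surface, was at 10.72, 10.005 and 10.37 (log2 signal, wild type 1 to 3), compared with 6.27, 5.68 and 7.12 (empty vector 1 to 3). The groups lay 2.89 apart at their nearest arrays. Its change was the largest of the 4 genes, 4.01 (log2, SE 0.46, interval 2.92 to 5.11, limma adjusted p = 0.00331), and ranked 30 of all clusters. The empty vector arrays of Gp5 spread more widely (SD 0.72) than those of Gp9 (SD 0.21). The empty vector values of Gp5 stood on both sides of the array medians of 6.06 to 6.19.

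Gp9, the small subunit needed for the complex to reach the surface, was at 9.34, 8.63 and 8.90 (log2 signal, wild type 1 to 3), compared with 6.80, 6.38 and 6.63 (empty vector 1 to 3). Here too the groups did not overlap, with 1.83 between the nearest arrays. The change was 2.35 (log2, SE 0.31, interval 1.63 to 3.08, limma adjusted p = 0.00522), rank 153 of all clusters. Its interval ended below the lower bound of Vwf, and the difference between these 2 changes was not itself tested.

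The cluster shared by Gp1bb and Septin5 cannot be given to either gene, and it is left out of the counts. It was at 5.61 on all 3 wild type arrays, compared with 6.15, 6.35 and 5.38 on the empty vector arrays, so the wild type values lay inside the empty vector range. The 3 wild type values were the same number. Its change was -0.35 (log2, SE 0.25, interval -0.94 to 0.25, limma adjusted p = 0.484). No value of Gp1bb alone can be read from it.

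Gp6, the collagen receptor, was at 6.28, 5.21 and 5.63 (log2 signal, wild type 1 to 3), compared with 5.40, 5.02 and 5.21 (empty vector 1 to 3). The groups overlapped, since wild type 2 stood at the value of empty vector 3 and below empty vector 1. Its change was 0.50 (log2, SE 0.26, interval -0.12 to 1.11) and missed the threshold (limma adjusted p = 0.327, unadjusted p = 0.0971). The Gp6 change was 0.21 without wild type 1 and 0.75 without wild type 2, and neither passed (limma adjusted p = 0.584 and 0.115). The upper bound of Gp6, 1.11, lay below the lower bound of Gp9, 1.63. Of the 9 Gp6 values, 8 lay below the lowest array median of 6.06, and the deposited values carry no measure of background.

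**Figure D2:**
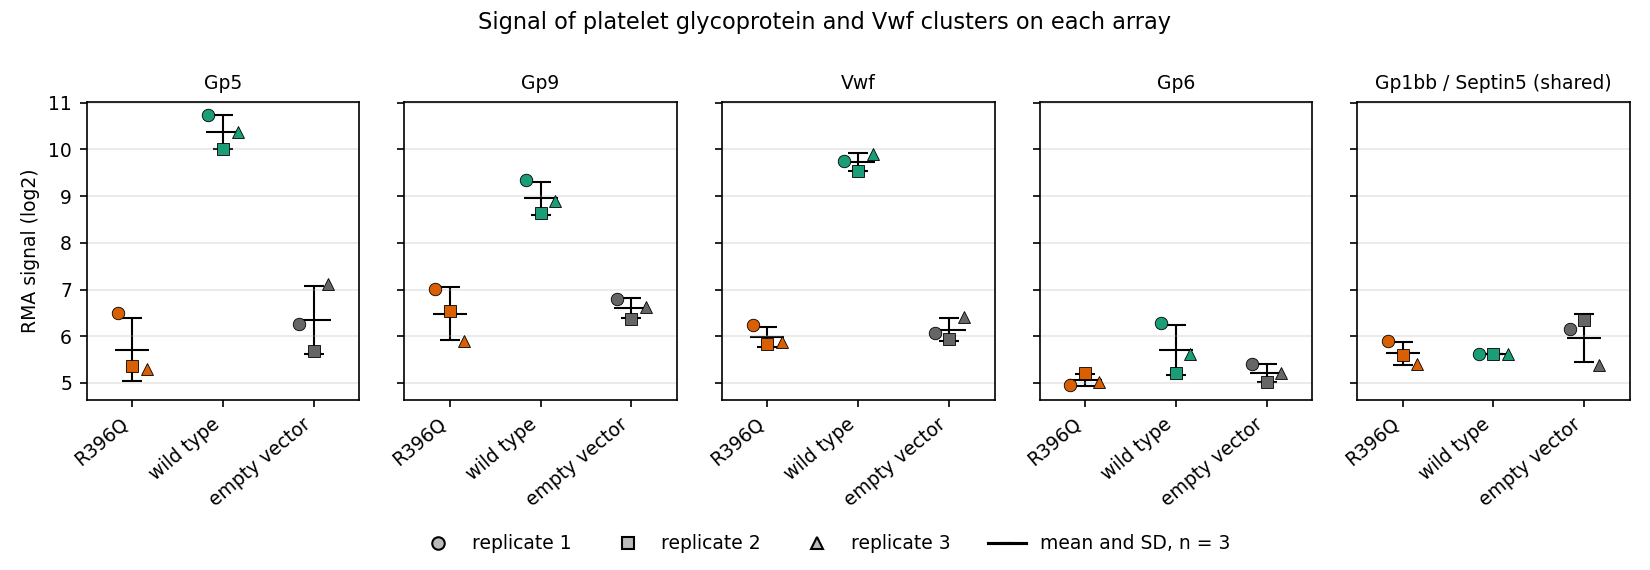
Log2 RMA signal of Gp5, Gp9, Vwf, Gp6 and the cluster shared by Gp1bb and Septin5 on each of 9 arrays, with R396Q, wild type and empty vector from left to right in each panel. Symbols mark the replicate number and bars the mean with SD (n = 3); the wild type arrays of Gp5, Gp9 and Vwf stand at 8.63 or above, while all their R396Q and empty vector arrays stand at 7.12 or below.

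The comparison of GATA2 R396Q with empty vector asked whether the variant changed the same genes. None of the 4 measured genes passed the test in either direction (0 called by limma, 0 with an unadjusted p under 0.05, and 0 with the replicate block), beside 1.23% of all clusters called (0.66% higher and 0.569% lower). Each of the 4 had overlapping groups, beside 14.1% of all clusters whose arrays did not overlap (6.98% upward, 7.1% downward), and each point estimate was below 0. The median change of the 4 was -0.15 on the log2 scale, against -0.01 over all clusters.

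Vwf was at 6.24, 5.84 and 5.88 (log2 signal) on the R396Q arrays, against the empty vector values above. Its change was -0.15 (log2, SE 0.17, interval -0.55 to 0.24, limma adjusted p = 0.786). This was the most closely bounded of the 4, and its upper bound of 0.24 stands against a lower bound of 3.19 for wild type. The Vwf values of R396Q and empty vector, 5.84 to 6.41, lay around the array medians of 6.06 to 6.19. The deposited values carry no measure of background, and whether a fall of Vwf could be read at this level was not tested. Gp9 was at 7.01, 6.54 and 5.89 on the R396Q arrays, with 1 array above and 1 below every empty vector array. Its change was -0.12 (interval -0.85 to 0.60, limma adjusted p = 0.936). Without R396Q 3 the Gp9 change was 0.17, so its sign rests on that array.

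Gp5 was at 6.50, 5.35 and 5.29 (log2 signal) on the R396Q arrays. Its change of -0.64 was the lowest of the 4 and the least certain (SE 0.46, interval -1.73 to 0.46, limma adjusted p = 0.655), with 2 R396Q arrays below all empty vector arrays and 1 within their range. Gp6 was at 4.97, 5.21 and 5.01 on the R396Q arrays, and changed by -0.15 (interval -0.76 to 0.47, limma adjusted p = 0.889). The cluster of Gp1bb and Septin5 was at 5.90, 5.60 and 5.41 on the R396Q arrays, a change of -0.32 (interval -0.91 to 0.27, limma adjusted p = 0.678). A p that misses the threshold does not show that R396Q left these genes as they were, and the intervals for Gp5 allow a fall of up to 1.73 on the log2 scale. The Gp5 values of 5.35 and 5.29 lay below the lowest array median of 6.06, and their distance from background is not known.

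The direct comparison of R396Q with wild type tested whether these genes differed between the 2 transduced groups. Vwf was 13.4-fold lower with R396Q (-3.74, SE 0.17, interval -4.14 to -3.35, limma adjusted p = 0.000155). Gp5 was 25.1-fold lower (-4.65, SE 0.46, interval -5.75 to -3.56, limma adjusted p = 0.00257), and Gp9 was 5.56-fold lower (-2.47, SE 0.31, interval -3.20 to -1.75, limma adjusted p = 0.00577). These 3 of the 4 genes were lower, where 3.08% of all clusters were lower, 2.67% higher and 5.75% either. On each of them the groups were apart, by 3.29 for Vwf, 3.51 for Gp5 and 1.62 for Gp9 at the nearest arrays (log2), and 9.59% of all clusters had every R396Q array below every wild type array (11% above, 20.6% either).

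Gp5 stood 16th from the bottom of 21072 clusters in this comparison, Vwf 34th and Gp9 98th. Gp6 was 1.56-fold below wild type (-0.64, interval -1.26 to -0.03), with an unadjusted p = 0.0421 that did not hold over all clusters (limma adjusted p = 0.257), and the difference was -0.35 without wild type 1. R396Q 2 and wild type 2 had the same Gp6 value, so the groups touched. The shared cluster of Gp1bb and Septin5 differed by 0.02 (interval -0.57 to 0.61, limma adjusted p = 1.0). The comparisons share arrays in pairs, so they are not separate evidence of one pattern.

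**Figure D3:**
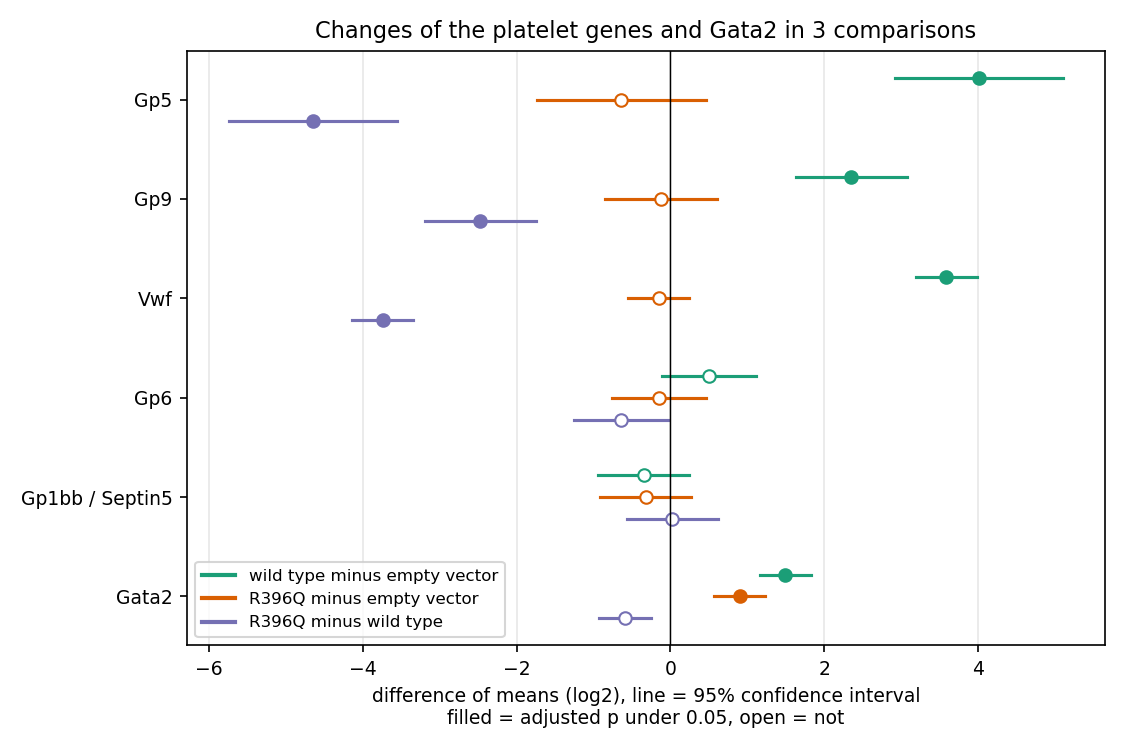
Differences of group means (log2) for the platelet genes and Gata2 in 3 comparisons, with 95% confidence intervals from limma; filled points passed an adjusted p of 0.05 and open points did not. Wild type minus empty vector lies at 2.35 to 4.01 for Gp9, Vwf and Gp5, whereas R396Q minus empty vector lies at -0.64 to -0.12 for all 4 measured genes.

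By their means the 4 genes had the same order, highest in wild type and lowest in R396Q. For Vwf the means were 5.99 ± 0.22 in R396Q, 9.73 ± 0.19 in wild type and 6.14 ± 0.24 in empty vector (log2, SD, n = 3). Gp5 averaged 5.71 ± 0.68 in R396Q, 10.37 ± 0.36 in wild type and 6.35 ± 0.72 in empty vector. Gp9 averaged 6.48 ± 0.56 in R396Q, 8.96 ± 0.36 in wild type and 6.60 ± 0.21 in empty vector. Gp6 averaged 5.06 ± 0.13 in R396Q, 5.71 ± 0.54 in wild type and 5.21 ± 0.19 in empty vector. Only the step to wild type was larger than the spread between arrays, and only for Vwf, Gp5 and Gp9. The neighbours R396Q and empty vector did not differ beyond their spread in any of the 4.

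Arrays with the same replicate number deviated together across the whole array, so changes were also taken within each number. Vwf rose by 3.67, 3.59 and 3.49 with wild type in numbers 1 to 3 (log2). Gp5 rose by 4.46, 4.33 and 3.25, and Gp9 by 2.54, 2.26 and 2.26. These within-number changes were close to each other for Vwf and Gp9, while number 3 was lower for Gp5, whose empty vector 3 array was the highest of its group.
With R396Q the within-number changes against empty vector took both signs in all 4 genes. Those of Vwf were 0.17, -0.10 and -0.53, and those of Gp5 0.23, -0.32 and -1.83. Those of Gp9 were 0.21, 0.17 and -0.74, and those of Gp6 -0.43, 0.19 and -0.19. Against wild type, R396Q was lower in each number for Vwf (-3.50, -3.70 and -4.03), Gp5 (-4.23, -4.65 and -5.08) and Gp9 (-2.33, -2.09 and -3.01), whereas Gp6 differed by 0.0 in number 2. Number 3 gave the lowest value for Vwf, Gp5 and Gp9 in both comparisons of R396Q. Wild type 2 and empty vector 2 were the lowest arrays of their group for all 4 genes, and R396Q 1 was the highest of its group for Vwf, Gp5 and Gp9.

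Over the 9 arrays the profiles of the genes that rose ran close together. Pearson's r was 0.985 between Gp5 and Vwf, 0.977 between Gp5 and Gp9, and 0.971 between Gp9 and Vwf. Gp6 was less like them, with r of 0.700 to 0.774. All 4 share arrays and groups, so r describes likeness of profile alone. The genes most like Vwf were Mfsd2b, Tmod1 and Ces2g (r of 0.9955 to 0.9963). Those most like Gp5 were Tent5c, Car5b and Ehd3 (r of 0.986 to 0.990), and those most like Gp9 were Naprt, Alad and Pgm2 (r of 0.985 to 0.988). Gp6 ran most like Phf1, Btbd19 and Sdhaf2 (r of 0.962 to 0.978), none of which passed the test in any comparison. Against the mean of the 4 z-scored profiles, the highest were Treml1, a receptor of platelet granule membranes, Lmna, and Rhag, an ammonium channel of red cells (r of 0.992 to 0.994). Klf1, the erythroid transcription factor, and the heme enzyme gene Alad were also among the first 10.

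Other receptors on platelets, listed from general knowledge, moved in part with these genes. Among 17 measured, 8 were called higher with wild type and 0 lower, with a median change of 0.59 (log2). Over all clusters the shares were 4.64% higher and 4.35% lower with wild type, and 0.66% and 0.569% with R396Q. Relative to wild type they were 2.67% higher and 3.08% lower with R396Q. Itga2, a chain of the collagen integrin, rose 19.6-fold, Itga2b, a chain of the fibrinogen receptor, 6.77-fold and the ADP receptor P2ry1 6.42-fold (SE 0.44, 0.22 and 0.26 on the log2 scale). With R396Q 2 of the 17 rose, P2rx1 (3.15) and Pecam1 (1.39), and the Pecam1 call was lost without empty vector 1, empty vector 3 or any R396Q array. The median change with R396Q was 0.42 (log2), against -0.01 over all clusters, and 7 of the 17 had an unadjusted limma p under 0.05. Array means of the 17 were 8.39 to 8.56 in R396Q, 8.99 to 9.33 in wild type and 7.75 to 8.10 in empty vector. Neither Itga2 (0.42) nor P2ry1 (0.09) passed. Itga2b did not pass either, though its mean with R396Q lay above that with empty vector. Relative to wild type 4 of the 17 were lower with R396Q and 1 was higher, with Itga2 14.7-fold lower, P2ry1 6.05-fold lower and Itga2b 2.88-fold lower.

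Signal proteins that act below GPVI and GPIb did not move one way. Of 17 measured, 4 rose and 3 fell with wild type. Of all clusters 4.64% rose and 4.35% fell with wild type, and 0.66% rose and 0.569% fell with R396Q. Lat, an adaptor of the GPVI pathway, rose 13.7-fold (SE 0.43), while Vav3, an exchange factor, was 3.86-fold lower (-1.95, SE 0.18). Fcer1g, the partner chain of GPVI, did not pass in any comparison. With R396Q 1 of 17 rose, Rap1b (0.29, SE 0.05), and that call was lost without any 1 array but empty vector 3 and after median subtraction. An unadjusted limma p under 0.05 was reached by 8 of these 17 with R396Q, in either direction. Among 17 genes of Vwf storage, cleavage and clearance, 4 were called higher with wild type (2 on leaving out empty vector 1, wild type 1 or R396Q 2, and 2 with 1 lower on leaving out empty vector 2), and 0 passed in limma with R396Q (4 had an unadjusted p under 0.05, and 2 rose with the replicate block). St3gal4, a sialyltransferase known in mice to protect Vwf from clearance, rose 2.71-fold (SE 0.18). Selp, stored with Vwf in platelet granules, did not pass in any comparison.

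Transcription factors of megakaryocytes were measured as well. Of 18, 7 rose and 2 fell with wild type. The shares of all clusters were 4.64% and 4.35% with wild type, and 0.66% and 0.569% with R396Q. With R396Q 3.08% of all clusters were lower than with wild type. Gata1, the main GATA factor of megakaryocytes, rose 1.86-fold with wild type (0.90, SE 0.13, limma adjusted p = 0.00774), with means of 5.48 in R396Q, 6.59 in wild type and 5.69 in empty vector. Its partner Zfpm1 rose 6.93-fold and the repressor Gfi1b 19.1-fold. Fli1, an ETS factor, rose 1.82-fold with wild type (SE 0.05) and 1.47-fold with R396Q (SE 0.05, limma adjusted p = 0.0080, lost on the 2 groups alone and after quantile normalization, up to 0.0709). With R396Q 3 of the 18 rose and 2 fell, or 2 to 3 in all on leaving out any 1 array, and Gata1 (-0.22), Zfpm1 (0.50) and Gfi1b (1.14) did not pass. Relative to wild type, R396Q was 2.16-fold lower for Gata1, 4.92-fold lower for Zfpm1 and 8.69-fold lower for Gfi1b. Of 16 genes of megakaryocyte maturation, 11 rose and 1 fell with wild type, 1 rose with R396Q, and 8 were lower with R396Q than with wild type. The first count of 12 calls was 7 without empty vector 3, wild type 2 or wild type 3, and its 1 fall was lost without any single array but empty vector 2. The gene that rose with R396Q was Ctla2a (2.85-fold), a call lost without empty vector 2 or any R396Q array and on the 2 groups alone. The last count was 4 without R396Q 3 or any wild type array, 5 without R396Q 1 and 2 without R396Q 2. Cd226 rose 8.98-fold and the lipoxygenase Alox12 10.5-fold with wild type.

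**Figure D4:**
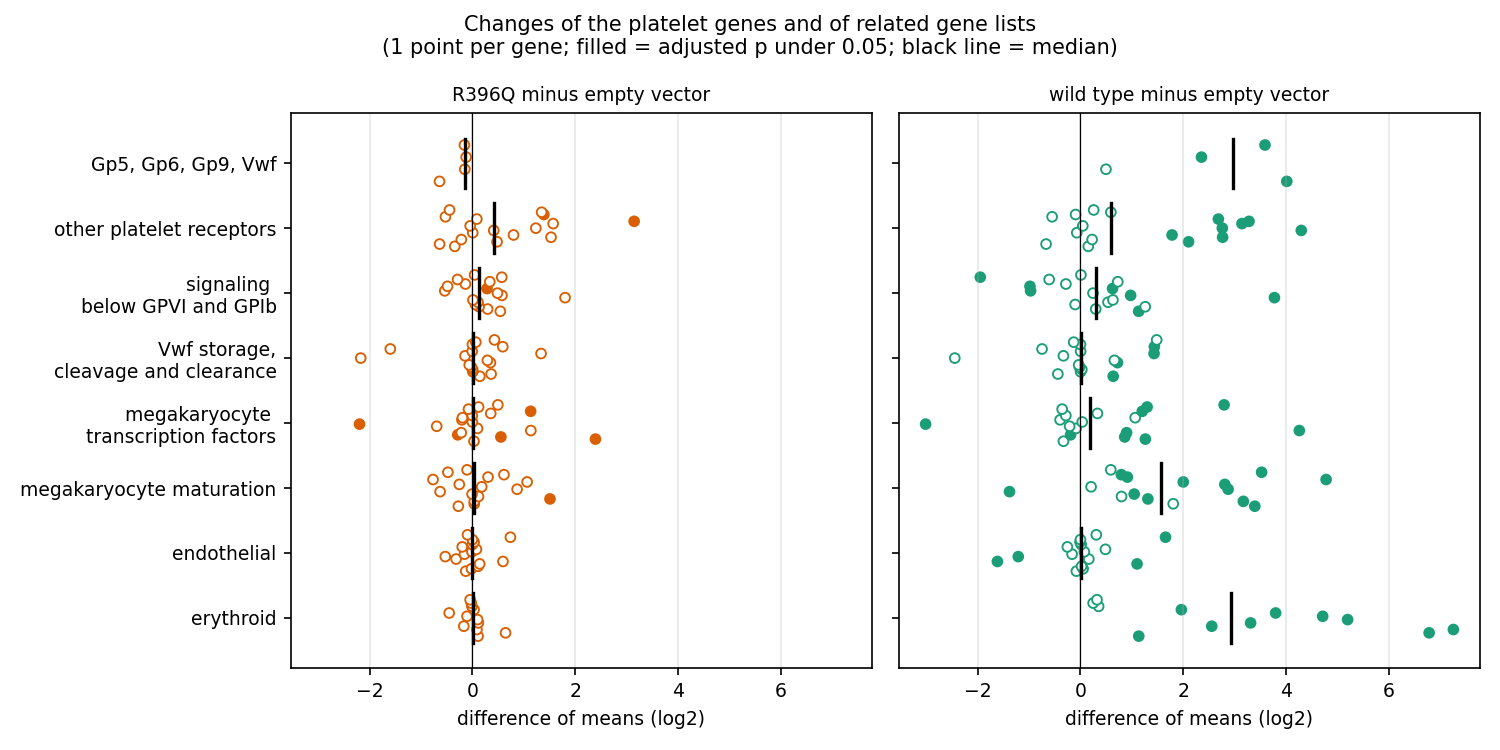
Changes on the log2 scale of Gp5, Gp6, Gp9 and Vwf and of 7 related gene lists, with R396Q minus empty vector on the left and wild type minus empty vector on the right. Each point is a gene, filled where the limma adjusted p was under 0.05, and black lines are medians; the medians of the 4 genes are -0.15 and 2.97.

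Endothelial cells also make Vwf, so their markers were read beside it. The mean log2 signal of 16 endothelial markers was 5.26 to 5.42 on the R396Q arrays, 5.32 to 5.45 on the wild type arrays and 5.29 to 5.38 on the empty vector arrays. Cdh5 had mean log2 signals of 4.38 in wild type and 4.46 in empty vector, and Kdr of 4.50 in wild type and 4.67 in empty vector. Neither passed, and both were picked after their values were seen. Of the 16, 2 rose with wild type (Tek and Eng) and 2 fell (Erg and Flt1), beside 4.64% of all clusters that rose and 4.35% that fell. These 4 calls were 2 on leaving out empty vector 1, empty vector 2, wild type 1 or wild type 3. Whether endothelial cells gave any of the Vwf signal was not tested.

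Markers of several other blood cells did move. Beside the counts below, 4.64% of all clusters rose and 4.35% fell with wild type, and 0.66% rose and 0.569% fell with R396Q. Of 12 erythroid markers 9 rose with wild type (7 to 10 on leaving out any 1 array). Their array means were 5.82 to 6.04 in R396Q, 8.36 to 9.59 in wild type and 5.75 to 5.97 in empty vector. Of 12 mast cell and basophil markers 8 rose with wild type, 1 of which was Gata2, the gene the retrovirus delivers. Only 6 to 7 of these markers rose on leaving out any 1 array. Their array means were 9.85 to 10.5 in R396Q, 11.5 to 12.7 in wild type and 8.77 to 10.2 in empty vector. Neutrophil markers fell with wild type in 6 of 13 (12 with the replicate block, 3 without empty vector 1), with array means of 10.8 to 13.9 in R396Q, 7.72 to 10.5 in wild type and 11.8 to 14.5 in empty vector. Monocyte and macrophage markers fell in both GATA2 groups, in 7 of 12 with R396Q and in 9 of 12 with wild type. Their array means were 7.20 to 7.59 in R396Q, 6.75 to 7.23 in wild type and 8.85 to 9.84 in empty vector. The R396Q count was 8 with the block, 4 without wild type 2 or wild type 3, 3 without empty vector 1, and 2 without empty vector 3 or any R396Q array. Of 6 lymphoid markers 0 passed in limma with wild type (0 with an unadjusted p under 0.05 and 0 with the block). With 6 genes, a count of 0 says little beside the 8.99% of all clusters called in either direction. Of 11 stem and progenitor markers 2 rose and 4 fell with wild type, and the falls numbered 2 on leaving out empty vector 1, wild type 1 or wild type 3. The part of these cell types in the values of Vwf, Gp5 and Gp9 was not tested.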

How the data were processed

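The deposited values are log2 signals, 1 for each transcript cluster on each array. The submitters' processing notes name RMA, a method of background correction, normalization between arrays and summary of probes, and Affymetrix Expression Console. The array is called Mouse Exon 1.0 ST in the labels. A genome build was not stated in the sources used here. Repeated values across arrays occur, as for Gp6, where 9 arrays gave 7 distinct values. Of 21072 clusters, 18992 had 1 symbol, 1390 several and 690 none, and for symbols with several clusters the one with the highest mean was used.

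Tests used limma 3.58.1 under R 4.3.3 on every cluster (1 mean per group over all 9 arrays, empirical Bayes, 2-sided), with Benjamini-Hochberg adjustment over all clusters and a threshold of 0.05. The procedure was tested on simulated data with independent noise on each array. Deviations shared by same-numbered arrays were not simulated, so that test does not cover them. Precision is limited by having 3 arrays per group. The genes, lists and tests were chosen with earlier results of these data known. Every member is described, and of each list up to 4 called genes with the smallest p, or 2 with the smallest p where fewer than 2 were called, were eligible to be named; genes named outside this rule (Fcer1g, Selp, Gata1, Cdh5 and Kdr) were chosen after their values were seen. Likeness is Pearson's r over 9 arrays, predicted genes left out.

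Same-numbered arrays of different groups had deviations from their group means that correlated at 0.451 to 0.693 (9 pairs), against -0.537 to -0.0900 for different numbers. The labels do not say what the numbers share, and the number as a block was an alternative fit.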

Additional observations from a re-analysis of the deposited data

How the results depend on the processing

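The calls of Vwf, Gp5 and Gp9 with wild type and against R396Q kept direction and threshold under all 18 other settings, with 3 of 4 genes called in each. These were the replicate block, fits on the 2 groups alone, trend and robust options, array weights, median subtraction, quantile normalization, filters that drop the dimmest 30% or 50%, averaging the clusters that share a symbol, and the removal of single arrays. With R396Q against empty vector 0 of the 4 were called under each. Gp6 and the cluster of Gp1bb and Septin5 drop out without the dimmest 50%. That setting therefore tested only Vwf, Gp5 and Gp9 of the 4 genes. The wild type changes ranged over 3.49 to 3.72 for Vwf (limma adjusted p up to 0.00366), 3.67 to 4.39 for Gp5 (up to 0.0172) and 2.16 to 2.51 for Gp9 (up to 0.0226), and for R396Q against wild type the limma adjusted p was at most 0.00421, 0.0157 and 0.0384 for these genes. Signs turned only for values near 0: Gp9 with R396Q (0.17 without R396Q 3, range -0.39 to 0.17 over single arrays left out) and the shared cluster against wild type (-0.11 without R396Q 1, range -0.11 to 0.14).

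Counts over all clusters moved more. For wild type, R396Q, and R396Q against wild type they were 1894, 259 and 1211, and with the replicate block 3667, 632 and 2750. On the 2 groups alone they were 1026, 94 and 772. Leaving out single arrays gave 1285 to 1724, 85 to 304 and 650 to 1153. For R396Q the count was 165 without wild type 3 and 98, 85 and 109 without R396Q 1, 2 and 3, and against wild type it was 650, 702 and 788 without the same 3 arrays. Other platelet receptors called with R396Q numbered 2, with 4 under the block, 1 on the 2 groups alone and 1 to 2 without single arrays (1 without empty vector 1 or any R396Q array). Against wild type they numbered 5, with 8 under the block and 5 on leaving out each array. The block changed no call of the 4 genes, and the cause of the moved counts was not tested.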

Other observations

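P2rx1 and Ets1 were called higher with R396Q, where Vwf, Gp5 and Gp9 did not pass the test. P2rx1, an ATP-gated channel of platelets, had a mean log2 signal of 10.92 with R396Q, 11.05 with wild type and 7.78 with empty vector. It rose 8.85-fold with R396Q (limma adjusted p = 0.00654, up to 0.0384 under the other settings) and 9.69-fold with wild type (limma adjusted p = 0.00124), and the R396Q mean differed from wild type by -0.13 (limma adjusted p = 0.906). The ETS factor gene Ets1 rose 5.25-fold with R396Q (limma adjusted p = 0.0105, lost without R396Q 1 and on the 2 groups alone). Ets1 was also called higher with wild type, by 1.03 to 1.47 (log2) under the other settings. That call was lost without empty vector 2, empty vector 3, wild type 1, wild type 3 or R396Q 1, and on the 2 groups alone. R396Q against wild type did not pass for Ets1 in the main fit (0.99 to 1.26 higher under the other settings, limma adjusted p of 0.021 to 0.152).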
